A study of Mus musculus with 15 samples.

Results

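The subject is the genotype by restimulation interaction in mouse T helper 2 (Th2) cells: for each gene, the log2 response of conditional knockout (cKO) cells to restimulation minus the log2 response of control cells. A positive value means that the gene went up more, or down less, in cKO cells. The interaction uses all 15 of the 15 libraries: 3 non-stimulated (NS) and 5 restimulated (STIM) control libraries, and 3 NS and 4 STIM cKO libraries. Control cells came from female Asb2fl/fl mice, whose Asb2 alleles are flanked by loxP sites. The cKO cells came from female VEC-Cre;Asb2fl/fl mice, which carry the same alleles and Cre recombinase driven by the VE-cadherin promoter, which is on in endothelium and in embryonic progenitors that give rise to blood. All groups therefore share the floxed alleles, and no group carries Cre without them. Naive CD4+ T cells of the spleen were grown under Th2 conditions for 3 days with stimulating antibodies and for 3 more days without them. For the last 24 h, starting on day 5, STIM cells were kept on wells coated with anti-CD3ε (3 µg/ml) while anti-CD28 was in the medium (2 µg/ml); NS cells had neither. Ages and the number of mice behind the libraries are not given in the sources used here.

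ASB2 is a substrate receptor of a Cullin 5 ubiquitin ligase, which marks proteins for degradation, and the actin-crosslinking filamins are its best known substrates. A ligase acts on proteins, so a change of its substrates need not appear in their RNA. Renewed contact of Th2 cells with antigen, mimicked here by antibodies to CD3 and CD28, switches on immediate transcription factors such as the EGR family, then the cytokines interleukin 4, 5 and 13, and shifts metabolism towards growth.

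Levels are given in CPM, counts scaled to a common library size. Estimated counts totalled 17.1 to 24.2 M per library, and 15619 of 56748 genes passed the filter on low counts. The first principal component held 61.5% of the variance of log2 CPM and separated the NS from the STIM libraries. Replicate 3 of the STIM cKO cells stood apart, with 9.43% of its counts from mitochondrially encoded genes against 4.36% to 6.24% in the other libraries. Several values that rest on it are given with and without it, but not all of them. Asb2 RNA was lower in all 3 NS and all 4 STIM cKO libraries than in any control library of the same condition, as the labels say. RNA was measured in bulk cultures, so fewer cells of a type and less RNA per cell cannot be told apart.

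No gene was called in the interaction. Of 15619 genes tested, 0 passed a Benjamini-Hochberg adjusted p under 0.05 (0%, edgeR quasi-likelihood test), and the smallest adjusted p was 0.997. At an unadjusted p under 0.05 there were 605 genes (3.87%), 200 of them positive (1.28%) and 405 negative (2.59%). Either response alone was wide: 7897 genes (50.6%) were called in control cells and 8398 (53.8%) in cKO cells, and 6789 were called in both with the same sign. Of all genes tested, 25.4% were called higher after restimulation in control cells and 26.7% in cKO cells. Of the 1103 genes called in control cells only, 104 had an interaction p under 0.05, and of the 1604 called in cKO cells only, 225 had one. Calling in a single genotype chooses genes whose responses differ in these same data. These counts therefore do not show responses particular to a genotype.

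**Figure D1:**
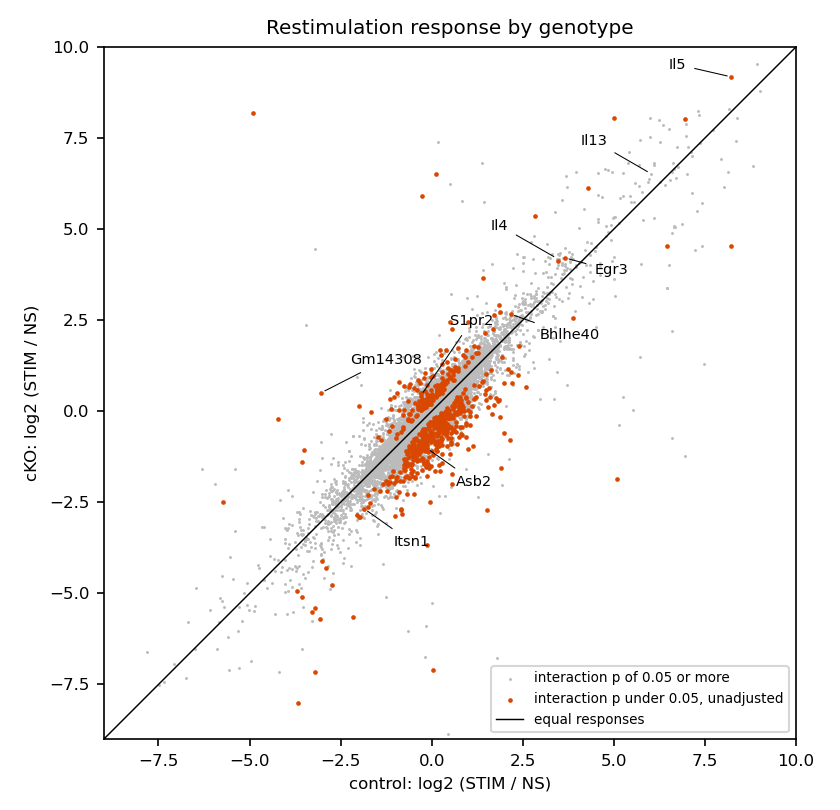
Each point is one gene; the horizontal axis is its log2 response to restimulation in control cells and the vertical axis that in cKO cells, with orange points at an unadjusted interaction p under 0.05. The 15619 genes lie along the line of equal responses, none is called after adjustment, and 10 genes whose fitted values fall beyond the axes are not drawn.

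The data bounded the difference for most expressed genes. The median standard error (SE) of an interaction was 0.23 on the log2 scale, and 0.18 for the 10760 genes with at least 5 CPM in the highest group mean. For 9672 of those 10760 genes (89.9%), the 95% interval of the interaction lay within 1 log2 unit of 0 on both sides. Among the 6789 genes called the same way in both genotypes, at any level, 5155 (75.9%) had such an interval, against 10403 of all 15619 genes tested (66.6%). The 5th and 95th percentiles over all genes were -0.71 and 0.53, with a median of 0.016, and 52.9% of all genes were positive, the share beside which the counts of positive members below stand. Intervals printed beside a value are such 95% intervals. A gene outside the bound is not shown to respond differently, and a gene that was not called is not shown to respond alike.

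Asb2, the floxed gene, was among the 10 negative interactions of smallest p that met the rule for named genes. That rule asks for at least 5 CPM in a group mean and leaves out clone names, among others. Genes outside the rule had smaller p. Its level was 34.7, 25.6 and 49.7 CPM in NS control cells and 34.1, 38.0, 32.3, 31.2 and 31.9 CPM in STIM control cells, 2 groups that overlap. In cKO cells it was 12.7, 22.7 and 22.1 CPM without and 9.58, 9.60, 9.44 and 9.36 CPM with restimulation. The 4 STIM cKO libraries lay below all 3 NS cKO libraries and within a narrow range. Its log2 response was -0.13 ± 0.18 (SE) in control and -1.01 ± 0.20 in cKO cells, and the interaction was -0.88 ± 0.27 (95% interval -1.46 to -0.30; unadjusted p = 0.0052, edgeR adjusted p = 0.997). Leaving out 1 library at a time gave -1.16 to -0.68, the smaller size without NS control replicate 2. Which exons are deleted is not given in the sources used here, so reads from the exons that remain count towards these levels.

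The ligase and its known substrates had a small median interaction, with single genes further from 0. Of the 16 genes tested in this class, 9 had a positive interaction, the median was 0.059, and of these 16 only Asb2 had an unadjusted p under 0.05. Single values ran from -1.33 to 0.37, and 14 of the 16 intervals lay within 1 log2 unit of 0. Without NS control replicate 3 the median was -0.0065. Flna, which encodes filamin A, was at 770.2, 989 and 689.6 CPM in NS control and 897, 777 and 953 CPM in NS cKO cells. After restimulation it was at 439 to 597 CPM in control and 429 to 594 CPM in cKO cells. It fell in both genotypes, by 0.63 ± 0.13 and by 0.74 ± 0.14 on the log2 scale, and the interaction was -0.12 ± 0.19 with an interval of -0.51 to 0.28; it was 0.078 without NS control replicate 3 and STIM cKO replicate 3 together. Rnf7, the RING subunit that works with Cullin 5, had the smallest p of the class after Asb2, at 0.31 ± 0.15 (-0.01 to 0.62). Among the 108 tested receptors of Cullin ligases of all families, 46 were positive and the median was -0.027. Fbxl2, an F-box protein, had the second smallest p of that class at -1.27 ± 0.50, at a mean of under 1 CPM in all groups.

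Th2 cytokine genes had mostly positive interactions, with a median that depended on 1 NS control library. Of the 12 measured Th2 cytokines and chemokines, 11 rose in each genotype, 10 had a positive interaction, and the median interaction was 0.40. Over all genes, 25.4% rose in control and 26.7% in cKO cells, and 52.9% had a positive interaction. The mean log2 CPM of the class was 0.53, 0.30 and 1.48 in NS control and 0.33, 0.94 and 0.76 in NS cKO cells, so all NS cKO libraries lay within the range of the NS control libraries. Leaving aside 3 of them that had no count in one of the groups, the median was 0.50. Il5, whose product sustains eosinophils, was at 3.53, 2.38 and 4.37 CPM in NS control cells and 1.78, 2.32 and 1.54 CPM in NS cKO cells. All 3 NS cKO libraries lay below all 3 NS control libraries. After restimulation Il5 reached 979.7, 1123, 1049, 1187 and 836 CPM in control and 1021, 1056, 1512 and 766 CPM in cKO cells, with full overlap. The interaction of Il5 was 0.95 ± 0.35 (95% interval 0.20 to 1.71), and of the 12 genes only Il5 had an unadjusted p under 0.05.

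Il4 and Il13 also had positive interactions, with wider errors, but unlike Il5 their NS libraries overlapped between genotypes. Il4 was at 10.3, 6.10 and 15 CPM in NS control and 6.21, 10.2 and 5.49 CPM in NS cKO cells, and at 87.7 to 138 and 84.2 to 181 CPM after restimulation. Its interaction was 0.74 ± 0.45 (-0.23 to 1.70). Il13, which drives mucus and epithelial responses, was at 26.8, 12.1 and 40.6 CPM in NS control and 11.2, 27.5 and 17.4 CPM in NS cKO cells. Its interaction was 0.50 ± 0.46 (-0.50 to 1.5), and in both genes the groups overlapped in each condition. NS control replicate 3 had the highest level of all 3 cytokines among the NS libraries. Without it the interactions were 0.73 for Il5, 0.38 for Il4 and 0.050 for Il13, and the class median was -0.056. Gata3, the master regulator of the Th2 lineage, was at 674 to 745 CPM in NS control, 663 to 756 in STIM control, 545 to 735 in NS cKO and 640.3 to 826 in STIM cKO cells. Its interaction was 0.13 ± 0.15, with an interval of -0.19 to 0.44. It was -0.097 on both TPM scales described further on, where the median over all genes was negative as well.

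The genes through which activation is sensed and relayed showed smaller values. Cytokine receptors had a median of 0.053 over 30 genes and chemokine and homing receptors 0.063 over 21, with no member at an unadjusted p under 0.05. The 30 genes of the T cell receptor complex and its first signalling steps had a median of 0.055, and 29 of them had an interval within 1 log2 unit of 0. Cd2, an adhesion receptor that aids T cell activation, had the smallest p of that class, at 0.37 ± 0.20. Other cytokines and growth factors had a median of 0.066 over 24 genes. Tnfsf8, which encodes the ligand of CD30, rose from 58.6 to 66.4 CPM to 821 to 982 CPM in control cells and from 38.9 to 63.7 CPM to 971 to 1036 CPM in cKO cells. Its interaction was 0.31 ± 0.18, and 0.12 without NS cKO replicate 3.

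Immediate activation factors were mostly positive. Of 34 tested, 29 had a positive interaction, the median was 0.24, and 3 had an unadjusted p under 0.05, all positive, against 3.87% of all genes. Egr3, an immediate early factor of T cell receptor signalling, was at 12.4, 10.0 and 14.7 CPM in NS control and 8.10, 10.4 and 7.26 CPM in NS cKO cells. It rose to 138 to 176 CPM in control and 129 to 181 CPM in cKO cells, which overlap. The interaction of Egr3 was 0.55 ± 0.21 (interval 0.11 to 0.99). Bhlhe40, a factor needed for cytokine production by T helper cells, was at 142, 144 and 243 CPM in NS control and 106, 155 and 136 CPM in NS cKO cells. After restimulation it was at 751 to 848 and 819.9 to 853 CPM, and the interaction was 0.50 ± 0.21 (0.050 to 0.95). The third gene, named after its values were seen, was the AP-1 subunit Jun at 0.58 ± 0.27.

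These values also leaned on 1 library. In NS control replicate 3 the mean log2 CPM of the immediate factors was 5.09, against 4.47 and 4.31 in the other NS control libraries and 4.18, 4.65 and 4.25 in NS cKO cells. The STIM libraries lay between 5.91 and 6.11 in control and between 5.97 and 6.02 in cKO cells. Without NS control replicate 3 the class median was -0.020, Egr3 was at 0.41 and Bhlhe40 at 0.20. Activation feedback genes, such as the dual-specificity phosphatases and SOCS proteins that damp signalling, had a median of 0.16 over 27 genes and of -0.077 without that library.

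**Figure D2:**
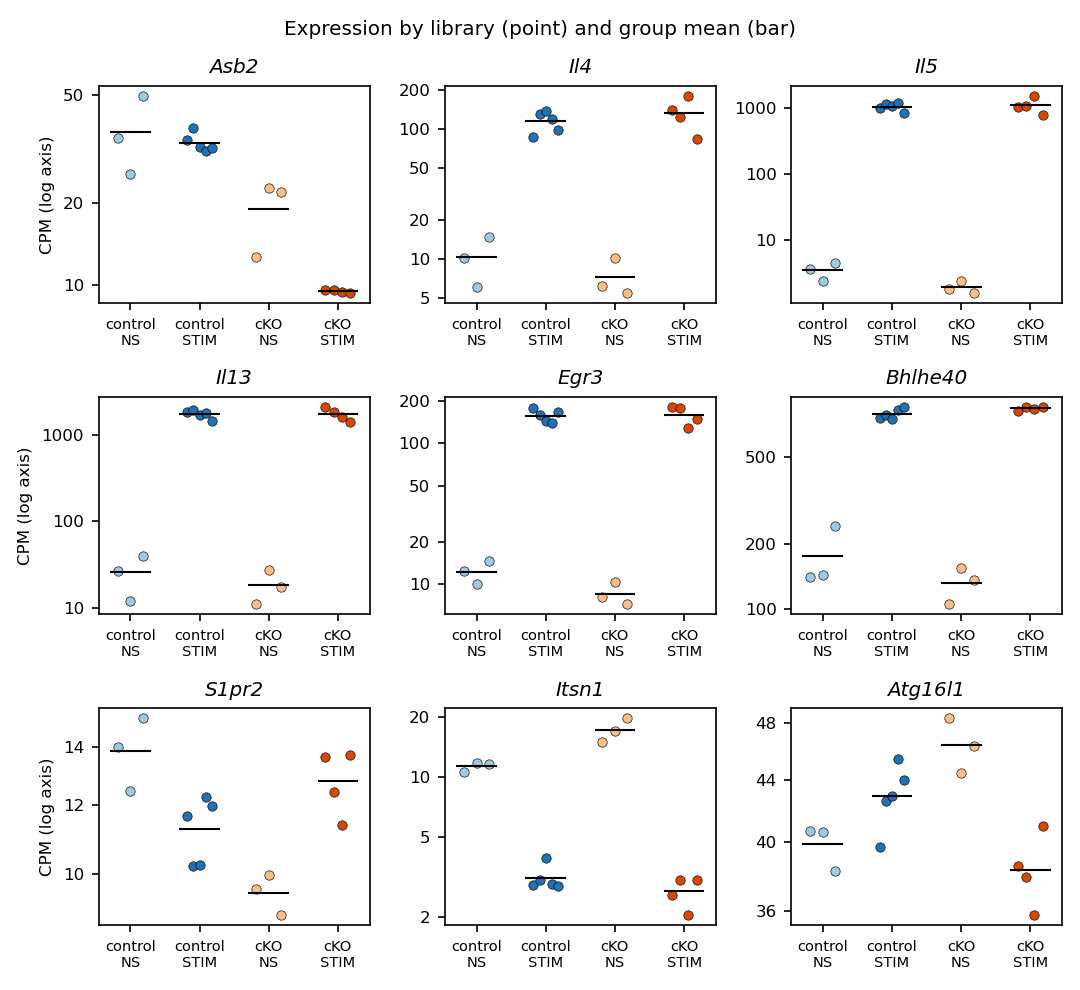
Each point is one library and each bar a group mean, in CPM on a log axis, for 9 genes in the 4 groups. Asb2 is lowest in the STIM cKO libraries, at 9.36 to 9.60 CPM; Il5 and Egr3 overlap fully between genotypes after restimulation and are lower in NS cKO than in NS control cells on average, and S1pr2, Itsn1 and Atg16l1 have NS cKO libraries that lie wholly below or above the NS control libraries.

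The size of the response as a whole was compared by grouping genes on the mean of both responses. The 445 genes with a mean response above 2 (log2) had a median interaction of 0.19, and 66.3% of them were positive. The 882 genes between 1 and 2 had a median of 0.10, the 12515 between -1 and 1 a median of 0.018, the 1245 between -2 and -1 a median of -0.080, and the 532 below -2 a median of -0.16. Strongly induced genes thus had slightly positive and strongly repressed genes slightly negative interactions, with a median genotype difference of -0.18 before and 0.020 after restimulation in the top group. The share of genes at an unadjusted p under 0.05 in that group, 19 of 445, was close to the 3.87% of all genes.

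This order of medians depended on the NS libraries. The genes above 2 had a median log2 CPM of -1.32, -1.58 and -1.13 in NS control and -1.60, -1.34 and -1.75 in NS cKO cells, which overlap, and of 1.77 to 1.99 in all 9 STIM libraries. Without NS control replicate 3 their median interaction was 0.0011, and that of the genes between 1 and 2 was 0.0030. Without NS control replicate 2 it was 0.31, and without NS cKO replicate 2, the NS cKO library with the highest level of these genes, 0.32. For the genes below -2 the median ran from -0.29 without NS control replicate 2 to -0.077 without NS cKO replicate 3. No median of the 5 groups changed sign in any of the 15 fits. Relative to the median over all genes, however, the genes above 2 stood at -0.0015 without NS control replicate 3. Without that library and STIM cKO replicate 3 together, the medians between 1 and 2 and above 2 were -0.0081 and -0.0091. On a log2(TPM + 0.1) scale the median over all genes moved from 0.016 to -0.21, and on log2(TPM + 1) to -0.17, so values near 0 turned negative there. Relative to that shifted median, the groups from the most repressed to the most induced stood at -0.12, -0.082, -0.00021, 0.077 and 0.14 on the first of these scales, and at 0.0058, -0.020, -0.0086, 0.080 and 0.14 on the second, where the most repressed group was no longer below the shifted median.

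**Figure D3:**
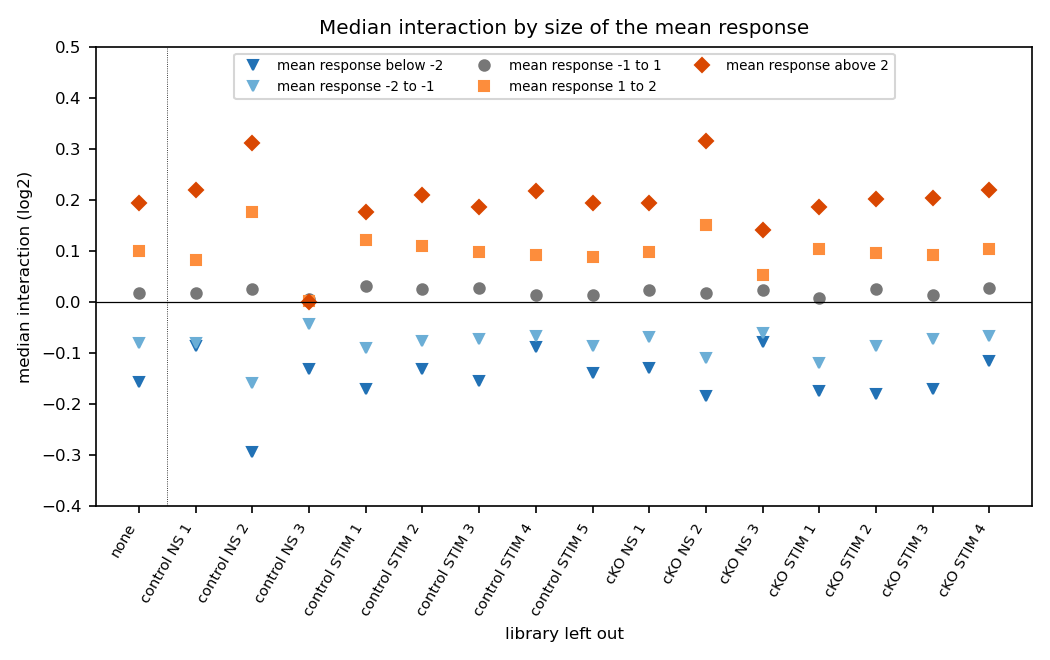
Median interaction (log2, vertical axis) of genes in 5 groups of mean response, with all libraries (left) and after leaving out each of the 15 libraries in turn (horizontal axis). The medians of both induced groups fall to 0.0011 and 0.0030 without NS control replicate 3 and reach 0.32 for the strongest group without NS cKO replicate 2.

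Receptors and factors that set T cell identity had small positive medians. Co-stimulatory and inhibitory receptors had 20 of 25 positive and a median of 0.17, and helper lineage factors with the STATs 17 of 22 and 0.10. Both medians were lower, at 0.052 and 0.037, without NS control replicate 3. Quiescence and memory genes, which are held high in resting T cells, had 24 of 25 positive and a median of 0.13, with no member at an unadjusted p under 0.05. Their medians ran from 0.093 to 0.23 over the 15 fits with 1 library left out. Btg2, an antiproliferative gene of that class, fell by 1.16 on the log2 scale in control and fell by 0.89 in cKO cells, with an interaction of 0.27 ± 0.14 (-0.02 to 0.57). Ahr, a ligand-activated factor of helper cells, had the smallest p of the lineage class at 0.66 ± 0.34, and at 0.31 without NS control replicate 3.

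Actin, DNA replication and mitosis genes had small median interactions. All 35 actin and adhesion genes, all 43 DNA replication genes and all 44 mitosis genes had an interval within 1 log2 unit of 0, with medians of 0.036, 0.019 and -0.0045. Their median responses in control cells were only -0.33, -0.083 and -0.36. A bound of 1 log2 unit thus does not show that their responses were alike. None of them had an unadjusted p under 0.05. Rhoa, the small GTPase that controls actin contraction, was at 0.18 ± 0.11 and Pfn1, which feeds actin monomers to filaments, at 0.22 ± 0.13. Both turned negative on the TPM scales, where the median over all genes was itself -0.21 and -0.17. Pfn1 was at 0.12 without NS control replicate 3. Ribosome biogenesis genes, of which 37 of 40 rose in control and 36 of 40 in cKO cells (25.4% and 26.7% of all genes), had a median interaction of 0.017. All 40 intervals lay within the same bound, beside a median response of 0.93 in control cells.

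Among metabolic classes the ATF4 and amino acid genes stood at one end and sterol synthesis at the other. The targets of ATF4, which supply amino acids and their tRNA synthetases, had 32 of 34 positive values and a median of 0.18; without NS control replicate 3 it was 0.056. Slc3a2, the heavy chain of amino acid transporters, was at 239.9, 171 and 303 CPM in NS control and 147, 253 and 149 CPM in NS cKO cells, and the interaction was 0.47 ± 0.26 (interval -0.069 to 1.02). It was 0.26 without NS control replicate 3 and 0.78 without NS cKO replicate 2. Sterol and fatty acid synthesis genes had 5 of 32 positive and a median of -0.13, with no member at an unadjusted p under 0.05. Their medians ran from -0.25 to -0.043 over the 15 fits, the value nearest 0 without STIM cKO replicate 3. Acaca, which makes the building block of fatty acids, had the smallest p at -0.38 ± 0.20, and was at -0.25 without STIM cKO replicate 3. Interferon response genes had the lowest median of all classes at -0.16, with 10 of 33 positive, and -0.011 without STIM cKO replicate 4. Glycolysis (0.050), hypoxia response (0.15), unfolded protein response and secretion (0.10), proteasome (0.033) and nuclear-encoded oxidative phosphorylation genes (0.045) had no member under 0.05. Without NS control replicate 3 the median of the unfolded protein response genes was 0.0063, and without NS cKO replicate 2 that of the hypoxia genes was 0.065.

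Cytosolic ribosomal protein genes had 82 of 85 positive interactions, a median of 0.19 and 6 members at an unadjusted p under 0.05, against 52.9% positive and 3.87% over all genes. Rps26 was at 812, 759.7 and 806 CPM in NS control and 722, 739.5 and 667 CPM in NS cKO cells, and at 926 to 1005 CPM in STIM control and 969 to 1209 CPM in STIM cKO cells. NS cKO lay below NS control throughout, while the STIM groups overlapped. Its interaction was 0.33 ± 0.12 (interval 0.077 to 0.59), and 0.29 without STIM cKO replicate 3. Rpl35 was at 0.41 ± 0.16 (0.069 to 0.74). The mean log2 CPM of the class was 9.07 in STIM cKO replicate 3 and 8.50 to 8.83 in the other STIM cKO libraries, against 8.40 to 8.78 in STIM control cells. Without STIM cKO replicate 3 the class median was 0.070. Mitochondrial ribosomal protein genes had a median of 0.076 over 78, with Mrps2 (0.39 ± 0.15) and Mrpl53 (0.57 ± 0.25) under 0.05. Translation initiation factors had 26 of 32 positive and a median of 0.10, with Eif1 (0.49 ± 0.21), which selects the start codon, under 0.05; Eif1 was at 0.32 without STIM cKO replicate 3.

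The mitochondrially encoded genes depended most on a single STIM library. Of 13 tested, 12 were positive and the median was 0.39; without STIM cKO replicate 3 it was 0.030. Transcripts of mt-Co3, a core subunit of complex IV, were at 1424, 1579 and 1920.0 CPM in NS control and 1357, 1371 and 1457 CPM in NS cKO cells. They were at 1688 to 1957 CPM in STIM control cells and at 1920.0, 1865, 3344 and 2146 CPM in STIM cKO cells, where replicate 3 was the highest. The interaction of mt-Co3 was 0.58 ± 0.22 (interval 0.11 to 1.06) and 0.36 without that replicate.

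Another 3 classes had medians above 0.2. Replication-dependent histones had 60 of 65 positive and a median of 0.27, with none under 0.05 and a range of 0.064 to 0.58 over the 15 fits. Their mean log2 CPM was spread in both NS groups, at 7.16, 6.41 and 7.22 in control and 6.15, 7.11 and 6.61 in cKO cells. Cytotoxic granule genes had 14 of 16 positive and a median of 0.43, which was -0.16 without NS control replicate 3, the NS library with the highest mean level of the class (6.02, against 4.43 to 5.16). Only 7 snoRNAs passed the filter, with a median of 0.76 and levels that differed widely between libraries of one group. Snord17 was at 12.1, 9.61 and 12.3 CPM in NS control and 7.33, 5.44 and 6.76 CPM in NS cKO cells, and had an interaction of 0.76 ± 0.34, or 0.44 without STIM cKO replicate 3. Another, Snord3b4, had no count in the NS cKO libraries or in NS control replicate 3, so no fold is given for it.

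Over all 42 classes, 35 had a positive median and 36 a median within 0.2 of 0. In 32 of those 35 the cKO cells were lower before restimulation by the class median. Among the 1783 distinct class members tested, 35 (1.96%) had an unadjusted p under 0.05, against 3.87% of all genes. For protein-coding genes alone that share was 2.53%, and 57.7% of them had a positive interaction. In 22 classes the sign of the median held in all 15 fits with 1 library left out, 19 of them positive, and in 20 it changed in at least 1 fit. The lowest median of a class came without NS control replicate 3 in 15 of the 42 classes.

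**Figure D4:**
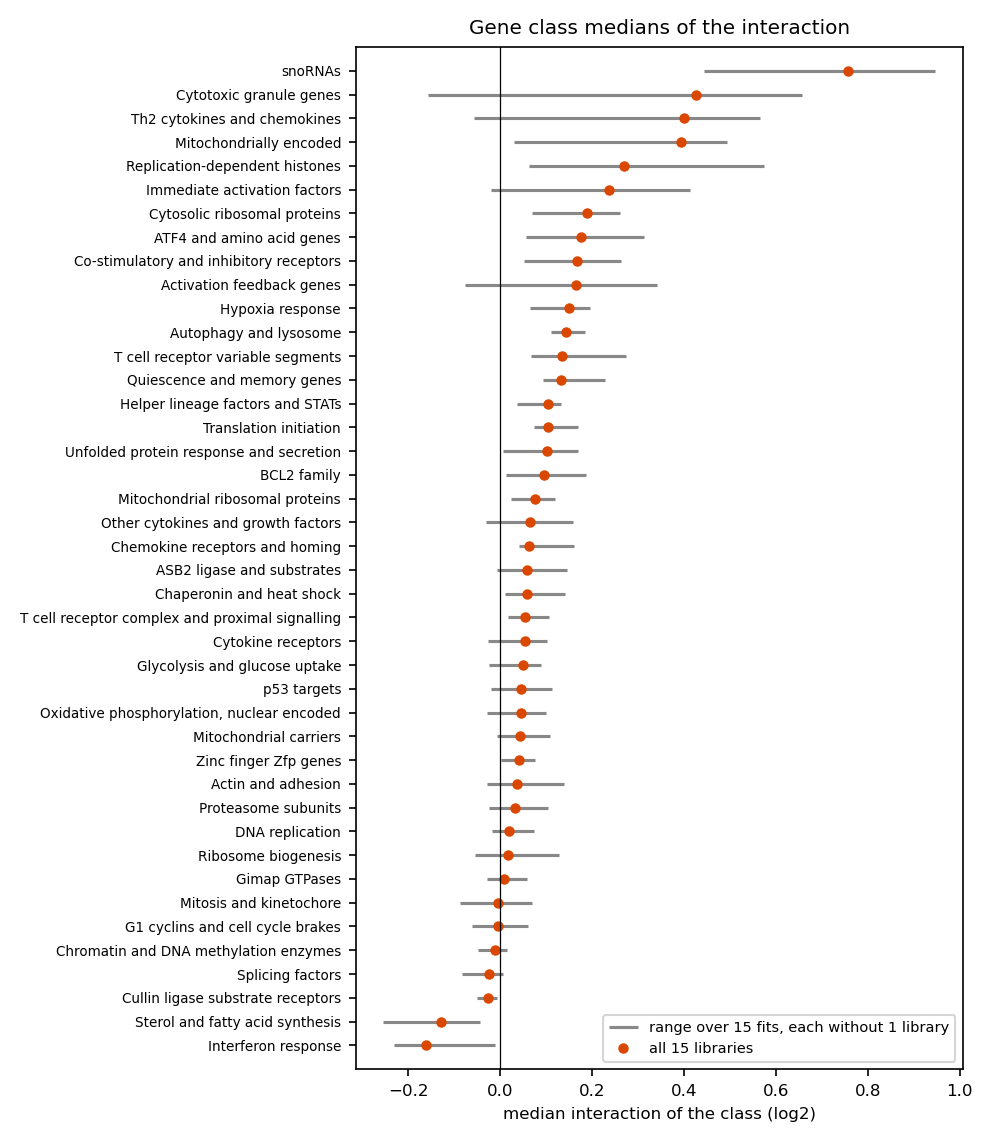
Points give the median interaction (log2) of each of 42 gene classes with all 15 libraries, and lines the range over 15 fits that each leave out 1 library. Medians run from -0.16 to 0.76, and the lines of 20 classes, Th2 cytokines and immediate activation factors among them, reach across 0.

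The single genes described next were chosen by p, so a small error beside the value comes with the choice. None was called, and over all genes 3.87% had an unadjusted p under 0.05, a share below that threshold itself. S1pr2, a receptor for sphingosine 1-phosphate that restrains cell migration, had the smallest p among positive genes at 5 CPM or more. It was at 14, 12.5 and 15.1 CPM in NS control and 9.62, 9.98 and 8.98 CPM in NS cKO cells, which do not overlap. After restimulation it was at 11.7, 10.2, 10.2, 12.3 and 12 CPM in control and 13.6, 12.4, 11.4 and 13.7 CPM in cKO cells, which do. S1pr2 fell in control cells (-0.30 ± 0.11) and rose in cKO cells (0.43 ± 0.12), each called, and the interaction was 0.72 ± 0.16 (95% interval 0.38 to 1.07, unadjusted p = 3.4e-04, edgeR adjusted p = 0.997). Leaving out any 1 library gave 0.66 to 0.79.

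The other positive genes of smallest p shared this layout. Zfp993, a zinc finger gene, was at 5.30, 5.43 and 5.58 CPM in NS control and 3.10, 2.69 and 2.68 CPM in NS cKO cells, and at 4.05 to 8.03 and 3.94 to 6.68 CPM after restimulation. Its interaction was 0.96 ± 0.31. Usp2, a deubiquitinase, was at 7.29 to 10.5 CPM in NS control and 5.31 to 6.31 CPM in NS cKO cells and overlapped after restimulation, with an interaction of 0.61 ± 0.20. Tex30 (0.62 ± 0.18), the kinase regulator Mob3b (0.73 ± 0.22), the amidase Wdyhv1 (0.63 ± 0.20), Thap12 (0.44 ± 0.12), Zfp422 (0.45 ± 0.15), the lysosomal peptidase Prcp (0.41 ± 0.13) and Cdkn2aipnl (0.37 ± 0.12) completed the 10. All 10 had a negative genotype difference before restimulation, from -0.94 for Zfp993 to -0.21 for Cdkn2aipnl. The interaction is the genotype difference after restimulation minus that before it. Choosing genes by a positive interaction therefore favours this layout, which is no separate result.

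The negative genes of smallest p, apart from Asb2, had the opposite layout, with higher levels in NS cKO cells. Choosing by a negative interaction favours that layout in the same way. Itsn1, an endocytic scaffold, was at 10.6, 11.7 and 11.6 CPM in NS control and 14.9, 17.0 and 19.8 CPM in NS cKO cells, without overlap. It fell to 2.83 to 3.95 and 2.03 to 3.06 CPM, and the interaction was -0.82 ± 0.23 (interval -1.30 to -0.34). Spaca6, a sperm membrane gene at a low level here, had -1.15 ± 0.28 (-1.75 to -0.55). Atg16l1, which directs lipid attachment in autophagy, was at 38.3 to 40.7 CPM in NS control and 44.5 to 48.4 CPM in NS cKO cells, then at 39.7 to 45.4 and 35.8 to 41.0 CPM after restimulation. Its interaction was -0.38 ± 0.11 (-0.61 to -0.15), while 26 of 32 autophagy and lysosome genes were positive, Gabarapl2 among them at 0.37 ± 0.15. Of these 32 genes, 5 had an unadjusted p under 0.05, 3 positive and 2 negative, against 3.87% of all genes.

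Sugp2, which encodes a protein with domains found in splicing factors, was at 56.1, 59.2 and 52.1 CPM in NS control and 70.6, 65.0 and 68.0 CPM in NS cKO cells, and at 44.6 to 51.9 and 33.2 to 44.2 CPM after restimulation. Its cKO libraries lay above the control libraries before and below them after restimulation, and the interaction was -0.50 ± 0.14 (interval -0.79 to -0.21). The splicing regulators Sfswap, Rbm25 and Srek1 had -0.36 ± 0.10, -0.39 ± 0.13 and -0.47 ± 0.15. None of these 4 is in the list of splicing factors used here, which had 25 of 54 positive values, a median of -0.024 and 1 member under 0.05, Hnrnpa2b1 at -0.28 ± 0.12. The remaining 2 were E4f1 (-0.43 ± 0.13) and Gnasas1 (-0.83 ± 0.25), a noncoding RNA antisense to Gnas; whether the counting used strand is not given in the sources used here.

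Only 5 genes were called in opposite directions by the 2 responses, and they are named after their values were seen. S1pr2 was one. The other 4, Gm42798, Gm47963, Gm47615 and ENSMUSG00000120994, rose in control and fell in cKO cells, with interactions of -0.90 ± 0.25, -0.99 ± 0.25, -1.23 ± 0.32 and -0.65 ± 0.16. The smallest p of all genes, 8.7e-05, belonged to the predicted gene Gm14308. It was at 3.80, 1.86 and 3.63 CPM in NS control cells and at or below 1.68 CPM in every other library, with an interaction of 3.54 ± 0.71. Its adjusted p was 0.997 by edgeR and it was called by DESeq2.

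TEC and long noncoding genes had mostly negative interactions. This split by GENCODE gene type was added after the values were seen. Of the 950 genes of type TEC, a provisional class of transcribed loci without an established product, 12.6% were positive, the median interaction was -0.46, and 151 were negative against 1 positive at an unadjusted p under 0.05. The 1061 long noncoding RNA genes had 31.6% positive, a median of -0.20, and 64 negative against 3 positive. The 12144 protein-coding genes had 57.7% positive, a median of 0.037, and 140 negative against 167 positive. The 1002 pseudogenes had 57.9% positive and a median of 0.096, and the 129 genes of other types 67.4% and 0.19. TEC genes thus made up 151 of the 405 negative genes.

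The median genotype difference of the TEC genes was 0.24 before and -0.23 after restimulation. By library, the median log2 CPM of these genes was 1.04, 1.27 and 0.92 in NS control and 1.36, 1.26 and 1.28 in NS cKO cells, and 0.74, 0.90, 0.95, 1.28 and 1.11 in STIM control and 0.57, 1.02, 0.55 and 0.97 in STIM cKO cells. The 3 NS cKO libraries lay above all 4 STIM cKO libraries, whereas the control groups overlapped, and the genotypes overlapped within each condition, before restimulation only at 1.27 (NS control replicate 2) and 1.26 (NS cKO replicate 2). Leaving out any 1 library gave medians of -0.58 to -0.39. Within both STIM groups the libraries with lower TEC medians, control replicates 1 to 3 and cKO replicates 1 and 3, had 1.82% to 2.56% of their counts from signal recognition particle RNA, against 0.90% to 1.21% in the others. With only the 3 control and 2 cKO STIM libraries above a share of 1.5%, and all NS libraries, the TEC median was -0.57, and with only the 2 and 2 below it, -0.43. These fits were chosen after the values were seen. In the NS groups the share was 2.09% to 2.60% in control and 1.69% to 1.88% in cKO cells, without overlap, so there it cannot be told apart from genotype. Relative to the median over all genes, the TEC median was -0.42 on log2(TPM + 0.1) and -0.16 on log2(TPM + 1), and that of long noncoding genes -0.15 and -0.040.

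**Figure D5:**
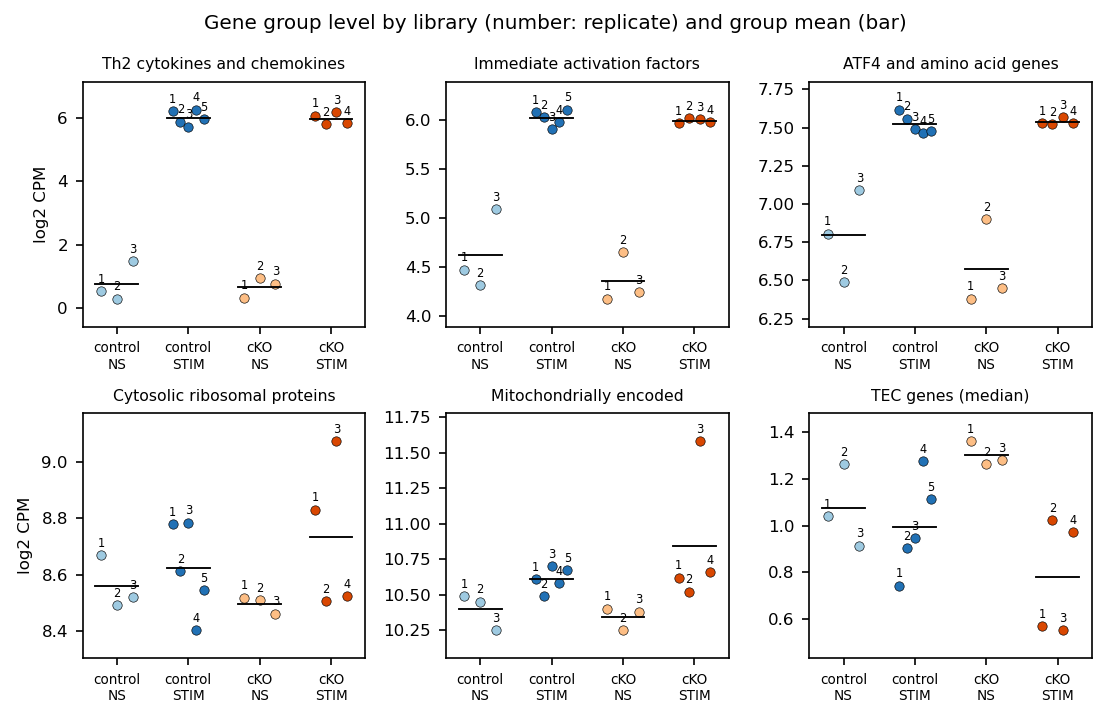
Mean log2 CPM of 5 gene classes and the median log2 CPM of TEC genes, one point per library with its replicate number and a bar for the group mean. NS control replicate 3 is the highest NS library for Th2 cytokines (1.48), immediate activation factors (5.09) and ATF4 genes (7.09), STIM cKO replicate 3 is the highest library for ribosomal protein (9.07) and mitochondrially encoded genes (11.6), and the TEC medians of NS cKO libraries lie above those of STIM cKO libraries.

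Markers of other cells were checked against the same contrast. The 10 CD4 T cell markers all passed the filter, with summed levels of 2490 to 3500 CPM and a median interaction of 0.11. For B cells 7 of 10 markers were tested, at a summed 2.12 to 14 CPM, with a median interaction of -2.52 (median SE 1.47). The 14 CPM was in STIM control replicate 1, against 5.65 to 8.87 CPM in the other STIM control libraries. No tested B cell marker had an unadjusted p under 0.05. For plasma cells 4 of 8 were tested, at 32.1 to 90.8 CPM and -1.59 (median SE 1.01), with 1 negative member under 0.05. The lists of macrophages and monocytes (3 tested), dendritic cells (7 tested) and fibroblasts and stroma (3 tested) also had 1 negative member under 0.05 each. The list of Th2 cells (11 tested) had 1 positive member under 0.05. Lyz2, C1qa and C1qb of macrophages, S100a8 and S100a9 of granulocytes and Hba-a1 and Hbb-bs of red cells had no count in any library. Other members of those lists were detected: macrophage markers summed to 13.2 to 23.1 CPM in NS and 3.09 to 6.47 CPM in STIM libraries, granulocyte and mast cell markers to 0.231 to 14.3 CPM and red cell and platelet markers to 0.649 to 1.68 CPM. Of the 8 endothelial markers, Cldn5, Emcn and Tie1 were at 0, and the list summed to 168 to 201 CPM in NS and 47.5 to 80.3 CPM in STIM libraries; the 2 that were tested, Pecam1 and Egfl7, had interactions of -0.11 ± 0.21 and -0.092 ± 0.27. Markers of NK and CD8 T cells summed to 218, 276 and 660 CPM in NS control, 158 to 449 CPM in STIM control, 181 to 502 CPM in NS cKO and 96.6 to 275 CPM in STIM cKO cells. NS control replicate 3 was again the highest, as it was for the cytotoxic granule genes above. The part of such cells in the cytokine and granule values was not tested.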

How the data were processed

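RNA of 15 Th2 cultures was sequenced after removal of ribosomal RNA with a stranded total RNA kit, per the labels' protocols. The authors deposited 1 table of estimated counts and 1 of TPM values per gene; cutadapt 3.4, STAR 2.7.9a, Salmon 1.10.1 and the build GRCm39 are named per the submitters' processing notes, and the annotation release is not given in the sources used here. Libraries held 17.1 to 24.2 M estimated counts as deposited, rounded here to whole numbers. Genes passing edgeR's filterByExpr (15619) were scaled by TMM, and 1 quasi-likelihood model with 4 group means was fitted to all 15 libraries (R 4.3.3, edgeR 4.0.16, robust). The interaction and both responses are contrasts of that fit, with Benjamini-Hochberg adjustment over all tested genes, a threshold of 0.05 and 95% intervals from the fitted error. CPM values come from the same scaled counts. All p-values of single genes are from this edgeR test.

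Named genes were Asb2, Flna, Gata3, Il4, Il5 and Il13, the 10 positive and 10 negative genes of smallest p with at least 5 CPM in a group mean, all without clone names, pseudogenes, mitochondrial, ribosomal and small RNA genes and receptor segments, and the 2 members of smallest p of each class. No gene was called in a fit without 1 library, so none was named for that. Gm14308, the 4 other genes with opposite calls, Jun and the split by gene type were chosen after their values were seen. Members, classes and tests were chosen with earlier results of these data known. Class counts and medians are descriptions, set beside the same values over all genes. Gene types were taken by Ensembl ID from a GENCODE annotation of another build, and 333 tested genes had no match. The labels do not say that libraries came from separate mice, so p-values measure only the spread between libraries, which may be technical. DESeq2 1.42.0, limma 3.58.1, other scalings, filters, units and sets of libraries were tried as alternatives. The fit was tested on simulated data.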

Additional observations from a re-analysis of the deposited data

Results flagged for a closer look

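In the STIM groups, 1 library stood far from the others of its group for 16 of 211 combinations of gene and group, 7.58%, over 106 genes; chance alone gives about 1 in 20. STIM cKO replicate 3, the library with the high mitochondrial share, held 7 of the 16. In it Srgn, the core protein of secretory granules, was at 5753 CPM against 2960.0 to 3429 CPM in the other STIM cKO libraries, and the heat shock gene Hspa1b at 12.8 against 5.33 to 5.86 CPM. Ifnar2, a subunit of the interferon receptor, was at 46.2 CPM there and the clamp loader gene Rfc4 at 43.6 CPM, both the highest of the group. The glycolytic enzyme gene Pfkp (560.4 CPM) and the histone methyltransferase gene Kmt2d (305 CPM) were lowest there. Pgk1-rs7, a copy of the glycolysis gene Pgk1, was at 14.8 CPM in that library and 0 in the other 3, and counts of such a copy are uncertain.

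STIM control replicate 1 held 4 of the 16: Slc3a2 at 413 CPM, Mrps2 at 57.6 CPM and Slc25a30, a mitochondrial carrier gene, at 48.1 CPM were highest there, and Cd247, the zeta chain of the T cell receptor complex, was lowest at 201 CPM. The remaining 5 were Mob3b at 25.5 CPM in STIM control replicate 5, Itsn1 at 3.95 CPM in STIM control replicate 3, Bcl2a1d at 29 CPM in STIM control replicate 4, Gpr183 at 16.7 CPM in STIM cKO replicate 1 and Jak2 at 1637 CPM in STIM cKO replicate 4, each the highest of its group.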

How the results depend on the processing

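No gene was called in the interaction in any of the 15 fits that left out 1 library, in which the number at an unadjusted p under 0.05 ran from 403 (without NS control replicate 3) to 1130 (without NS control replicate 2). DESeq2 called 2 genes (Gm14308 and Pgk1-rs7), the fit with a replicate block within genotype called 1 (Pgk1-rs7), and the fit with only the STIM libraries below a signal recognition RNA share of 1.5% called 1 (Trav6-6); every other alternative called 0. The replicate block over all groups gave 623 genes at an unadjusted p under 0.05 and the block within genotype 588. Deviations of libraries with the same number and genotype correlated at -0.18 to 0.095, so the numbers were not taken as pairs. Without 1 library, calls ran from 6682 to 8076 in the control and from 7428 to 8506 in the cKO response, and genes with an interval within 1 log2 unit from 9799 to 10510.0.

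Medians by mean response, from below -2 to above 2, ran over those 15 fits from -0.29 to -0.077, -0.16 to -0.043, 0.0064 to 0.033, 0.0030 to 0.18 and 0.0011 to 0.32, protein-coding genes from 0.015 to 0.049, long noncoding genes from -0.26 to -0.16 and TEC genes from -0.58 to -0.39. On log2(TPM + 0.1) the 5 medians were -0.33, -0.29, -0.21, -0.13 and -0.068, with -0.19 for protein-coding and -0.36 for long noncoding genes. On log2(TPM + 1) those from -2 upwards were -0.19, -0.17, -0.086 and -0.030, with -0.16 for protein-coding genes. The genes between -1 and 1 stood at 0.0028 with the replicate block within genotype and at 0.0086 by voom. Without NS control replicate 3 and STIM cKO replicate 3 together, the genes between -1 and 1, between 1 and 2 and above 2 stood at -0.00052, -0.0081 and -0.0091, and protein-coding genes at 0.011. With only replicates 1 to 3 the genes below -2 stood at -0.031. The causes were not tested.

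None of the 106 named genes changed sign without 1 library. Most of them were chosen by a small p with all libraries, nearly all of which each such fit reuses. The stable signs are therefore no independent support. On log2(TPM + 0.1) and log2(TPM + 1) the interaction changed sign to these values: Gata3 -0.10 and -0.10, Vegfa -0.21 and -0.20, Ifngr2 -0.0079 and -0.0055, Cd247 -0.019 and -0.019, Cd200 -0.050 and -0.038, Jak2 -0.012 and -0.011, Pfn1 -0.0096 and -0.0096, Rhoa -0.052 and -0.052, Orc6 -0.0058 and -0.0051, Cks2 -0.027 and -0.026, Ssr2 -0.050 and -0.050, Pfkfb3 -0.19 and -0.17, Mxi1 -0.015 and -0.013, Fads1 -0.077 and -0.073, Cct6a -0.12 and -0.12, Lamp1 -0.059 and -0.059, Psme3 -0.010 and -0.0099, Psmc6 -0.013 and -0.013, Cox7c -0.022 and -0.022, Slc25a30 -0.088 and -0.078. On these scales the median over all genes was itself -0.21 and -0.17, so a change of sign there includes that shift. Without both libraries named above, Flna was at 0.078 and Psmc6 at -0.015. Mitochondrially encoded genes, histones and snoRNAs have no value in the fit without those genes. At this depth the median SE was 0.53 for genes below 5 CPM, which limits what could be detected there.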
